A study of Homo sapiens with 10 samples.

Results

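The 10 genes described here encode enzymes that make serine, glycine, proline and asparagine, or that pass on the one-carbon units released from serine: PHGDH, PSAT1, PSPH, SHMT1, SHMT2, MTHFD2, ALDH1L2, ALDH18A1, PYCR1 and ASNS. They were taken by gene name from the transcript count tables of all 10 libraries. Each was represented by 1 deposited RefSeq transcript, so the set covers 10 of the 24994 named genes and unnamed transcripts in the tables. All 10 were among the 13731 genes that passed the filter on low counts. ALDH1L2 passed through the 3 of 8 libraries in which it had 10 or more tags, the deposited count of sequenced fragments per transcript, and its highest count among those 8 libraries was 22.

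The study measured polyadenylated RNA in HEK293 cells, a human embryonic kidney line grown in DMEM with fetal calf serum, as part of a quantitative comparison of methods that crosslink RNA to bound proteins with ultraviolet light (CLIP). Untreated cells received neither 4-thiouridine nor ultraviolet light. A second group was given 1 mM 4-thiouridine (4SU), a photoreactive uridine analogue that cells build into new RNA, for 12 to 14 h and was not crosslinked. Another group was given 4SU in the same way and then irradiated at 365 nm, and the last received no 4SU and was irradiated at 254 nm. These 4 groups had 2 libraries each, named A and B. There was 1 library each of cells given an siRNA to GFP and of cells given an siRNA to HuR, an RNA-binding protein encoded by ELAVL1. Irradiation at 365 nm without 4SU and at 254 nm with 4SU are not among the samples. No label says that libraries A and B came from separate cultures, so the spread between libraries behind the p-values may be technical. For each gene that spread was estimated mostly from all tested genes together, and the gene's own libraries weighed less.

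The serine pathway starts from a glycolytic intermediate, 3-phosphoglycerate: PHGDH oxidises it, PSAT1 adds the amino group and PSPH removes the phosphate. SHMT1 in the cytosol and SHMT2 in mitochondria then cleave serine to glycine and load a one-carbon unit on folate, which MTHFD2 and ALDH1L2 oxidise further in mitochondria. ALDH18A1 and PYCR1 catalyse early and last steps of proline synthesis from glutamate, and ASNS makes asparagine from aspartate and glutamine. Many of these genes are textbook targets of the transcription factor ATF4, which is made when cells lack amino acids or meet endoplasmic reticulum stress and which binds C/EBP-ATF response elements. PHGDH and SHMT2 are also widely used as markers of the high serine and one-carbon metabolism of proliferating cells.

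The ASNS and ALDH18A1 promoters are shown because they were the ones among the genes' promoters that held a searched motif. The RefSeq promoter table (GRCh38.p14) had an entry for 6 of the 10 genes: PHGDH, PSAT1, SHMT1, MTHFD2, ASNS and ALDH18A1, with 2 start sites for ASNS. Both strands were searched for TGATGNAAN, a form of the C/EBP-ATF response element, and for CACGTG, the E-box; no match overlapped another apart from the E-box reading the same on both strands. The response element was found in 1 ASNS promoter, at -68 to -60 from the start site, and the E-box in the ALDH18A1 promoter at -136 to -131. Of the 35116 promoters in the table, 3.13% held TGATGNAAN and 6.34% held CACGTG in the 250 bases before the start. A match is a run of letters, not a measured binding site, and no library measured binding. The bases before the start site follow, 5′ to 3′ on the gene's strand, with the match in capitals; both genes lie on the minus strand, at chr7:97872409-97872658 for ASNS and chr10:95656712-95656961 for ALDH18A1.
ASNS: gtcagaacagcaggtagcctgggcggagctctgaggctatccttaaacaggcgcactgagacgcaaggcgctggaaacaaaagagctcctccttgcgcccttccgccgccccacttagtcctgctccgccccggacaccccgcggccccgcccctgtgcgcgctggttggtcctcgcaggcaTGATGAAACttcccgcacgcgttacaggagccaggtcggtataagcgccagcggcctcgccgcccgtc
ALDH18A1: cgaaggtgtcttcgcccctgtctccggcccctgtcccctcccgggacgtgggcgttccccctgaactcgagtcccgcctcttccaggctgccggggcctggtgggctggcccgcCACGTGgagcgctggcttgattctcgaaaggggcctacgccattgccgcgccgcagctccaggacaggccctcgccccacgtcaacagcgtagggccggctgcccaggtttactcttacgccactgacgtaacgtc

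The 8 libraries of the replicated groups held 2238569 to 3099769 tags each, and the siRNA libraries held 8688262 and 9016803. A gene with no tag could therefore still have stood at up to 0.968 to 1.34 counts per 1000000 tags (CPM) in the 8 libraries, taking 3 tags as the limit that a count of 0 allows, for counting error only. Crosslinked libraries stood apart in transcript length: the tag-weighted median length was 1147 and 1431 nt after 4SU and 365 nm and 1534 and 1305 nt after 254 nm, against 2373 to 3029 nt in the other 4. Of 9 genes listed as marking HEK293 cells, 7 to 9 were detected in each library, with summed levels, relative to library totals, of 162 and 285 CPM after 4SU and 365 nm and 349 to 951 CPM in the other 6; IRS4 stood at 5.41 and 8.02 CPM after 365 nm and at 28.5 to 413 CPM in the other 6. VIM stood at 0 to 15.5 CPM, and KRT8, at 0 to 1.31 CPM, was at or near 0. Of 12 markers of other cell types, 3 to 8 were detected, while CD3E, HBB and ALB had no tag. EPCAM, at 186 to 406 CPM, made up most of their sum, and COL1A1 stood at 12.1 to 31.7 CPM. After 4SU and 365 nm the sum was 373 and 456 CPM, above that of the HEK293 genes in the same libraries. In this bulk RNA, fewer cells of a kind and less RNA per cell cannot be told apart.

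In untreated cells the levels of the 10 mRNAs covered a wide range. As CPM of the library total per kilobase of transcript, PHGDH stood highest at 188 ± 80.1 (SD, n = 2) and SHMT2 followed at 178 ± 64.4. ASNS at 110 ± 39.8 and MTHFD2 at 107 ± 11.3 came next. These 4 formed a top group in which neighbours did not differ beyond their spread. PSAT1 at 74.1 ± 9.17 and ALDH18A1 at 73.7 ± 10.7 were level with each other and below MTHFD2 by more than their spread. SHMT1, the cytosolic partner of SHMT2, stood at 45.6 ± 1.06, and PSPH at 11.8 ± 0.742. PYCR1, at 2.11 ± 2.12, and ALDH1L2, at 0.967 ± 0.0388, were the lowest and overlapped. PYCR1 had 23 tags in untreated library A and 3 in library B, so its level there is known poorly.

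Together the 10 mRNAs took between 0.115% and 0.304% of all tags in a library, lowest in 254 nm library B and highest in 4SU library A. Within that total, PHGDH and SHMT2 together made up 47.7% and 35.9% of the tags in untreated cells and 47.0% and 48.3% with 4SU. After 254 nm their share was 65.2% and 69.9%, and after 4SU with 365 nm it was 85.1% and 79.5%. The share in both crosslinked groups lay above that in every uncrosslinked library, 41.0% and 54.8% in the siRNA libraries included. These shares are computed within each library and do not depend on how libraries are scaled to each other. PHGDH and SHMT2 were also called higher in both crosslinking comparisons below, so the shares are a description and no separate support.

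**Figure D1:**
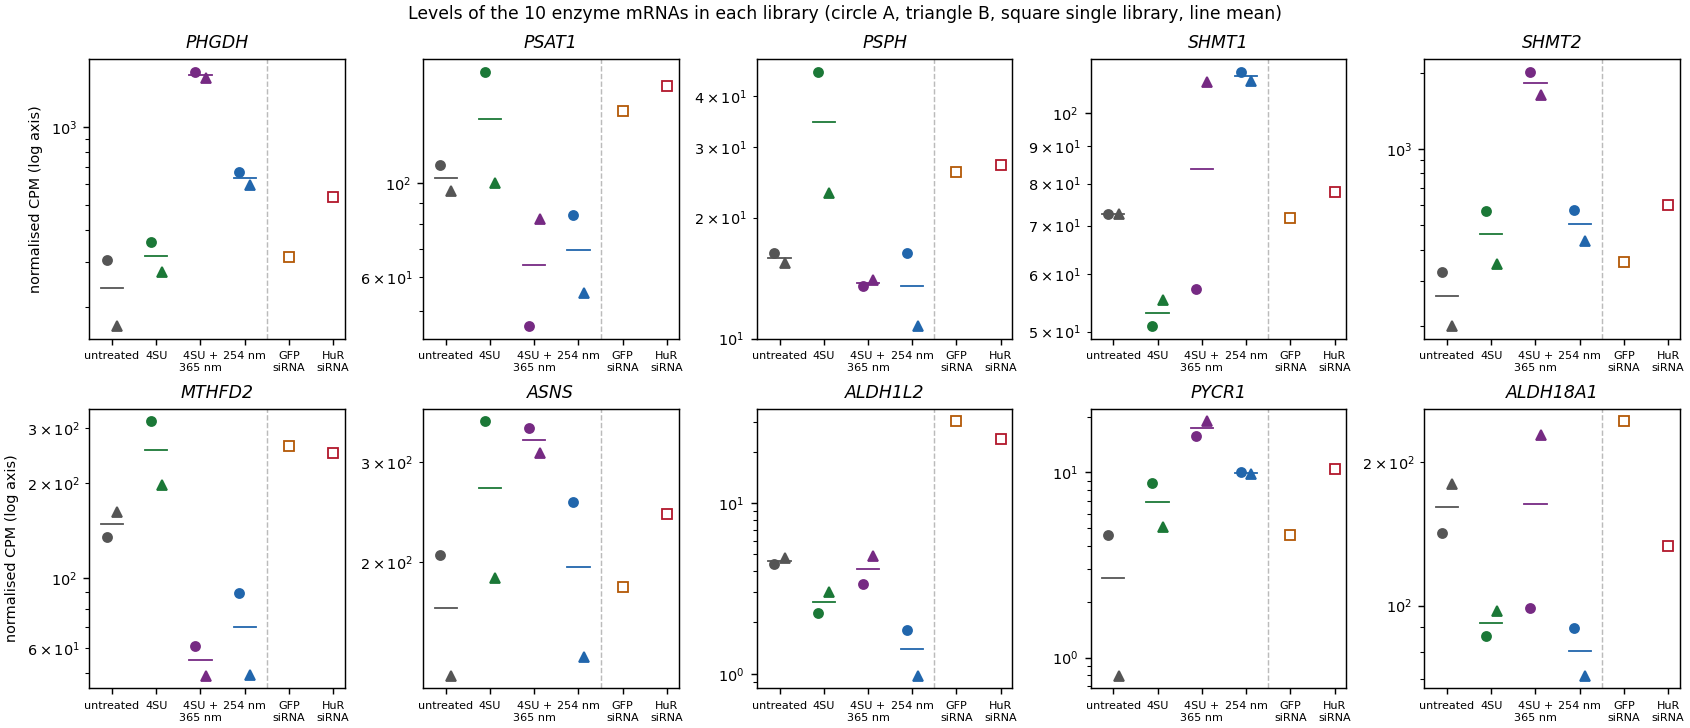
Each panel plots 1 gene's normalised CPM on its own log axis (TMM scaling), with circles for library A, triangles for library B, squares for the single siRNA libraries and a line at the mean of 2 libraries. PHGDH and SHMT2 are highest after 4SU with 365 nm and MTHFD2 is lowest in the crosslinked groups; the siRNA pair, right of the dashed line, was scaled separately.

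4SU feeding without crosslinking was compared with no treatment to see what the analogue alone did to these mRNAs. None of the 10 passed the test: 0 were called higher or lower at an adjusted p under 0.05 in edgeR's quasi-likelihood test with Benjamini-Hochberg adjustment over all 13731 genes, where 7.54% of genes were called in either direction, 3.85% higher and 3.69% lower. DESeq2 called 0 as well, and 4 had an unadjusted p under 0.05 in edgeR (PSPH, MTHFD2, PYCR1 and ALDH18A1), as had 21.7% of all tested genes (2981 of 13731). The fitted log2 fold change was positive for 7 genes and negative for 3, with a median of 0.58 against 0.02 over all tested genes. Both 4SU libraries lay above both untreated ones for 4 of the 10 and below for 3; over all tested genes the shares were 24.7% and 24.3%.

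PSPH, which releases free serine, came nearest to the threshold. It stood at 16.3 and 15.4 CPM (normalised across libraries by TMM factors, as are all CPM below unless stated) in untreated cells and at 46.1 and 23.0 CPM with 4SU. Both 4SU libraries were higher, and the 2 differed by a factor larger than any between the untreated pair. The log2 fold change was 1.11 ± 0.38 (SE; adjusted p = 0.0620), and over 19 alternative settings the adjusted p ranged from 0.0124 to 0.758. Leaving out 4SU library B gave 1.52 (adjusted p = 0.0407) and leaving out untreated library A gave 1.13 (adjusted p = 0.0432), while without 4SU library A it was 0.51 (adjusted p = 0.758). Deposited PSPH counts were fractional in 8 of the 10 libraries, as they are where tags match more than 1 transcript, so its count may include tags of a near-identical copy.

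MTHFD2, the mitochondrial methylene-tetrahydrofolate dehydrogenase, stood at 135 and 162 CPM in untreated cells and 315 and 197 CPM with 4SU. The groups did not overlap, and the log2 fold change of 0.78 ± 0.34 did not pass (adjusted p = 0.162). SHMT2 was at 325 and 199 CPM untreated and 570 and 349 CPM with 4SU, for a log2 fold change of 0.81 ± 0.40 (adjusted p = 0.234). PYCR1, the last enzyme of proline synthesis, stood at 4.58 and 0.798 CPM against 8.84 and 5.09 CPM, a log2 fold change of 1.25 ± 0.53 (adjusted p = 0.146). Without untreated library A, whose partner held 3 PYCR1 tags, the value was 3.0 (adjusted p = 0.00365). Over the 8 fits without 1 library it ranged from 0.54, without untreated library B, to that value, and the adjusted p reached 0.676. ASNS overlapped between groups, at 205 and 126 CPM untreated and 354 and 187 CPM with 4SU (log2 fold change 0.70 ± 0.37, adjusted p = 0.262).

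ALDH18A1, which makes the proline precursor pyrroline-5-carboxylate, had the lowest fitted value of the 10. It stood at 142 and 180 CPM in untreated cells and 86.4 and 97.6 CPM with 4SU, a log2 fold change of -0.80 ± 0.35 (adjusted p = 0.157). Both 4SU libraries lay below both untreated ones. SHMT1 was at 72.7 CPM in both untreated libraries and 50.9 and 55.2 CPM with 4SU (-0.45 ± 0.33, adjusted p = 0.442). The 2 serine hydroxymethyltransferases therefore had fitted values of opposite sign, and neither passed the test. PHGDH (0.42 ± 0.39) and PSAT1 (0.46 ± 0.34) overlapped between groups, and ALDH1L2 was at -0.76 ± 0.53 on 8 to 22 tags a library.

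The other genes of these pathways were counted from lists chosen by function, with earlier results of these data known. Of 11 tested serine and glycine enzymes outside the 10, 0 were called higher and 1 lower, the glycine cleavage enzyme GLDC, at 35.1 and 45.0 CPM untreated and 7.96 and 12.2 CPM with 4SU (log2 fold change -1.96, adjusted p = 0.00148). Of 19 other folate enzymes, 0 were called higher and 3 lower: FPGS, which adds glutamates to folate, at -1.81, the trifunctional cytosolic MTHFD1 at -1.35, and the purine enzyme ATIC at -1.28. None of 10 other proline enzymes was called in either direction, with a median of -0.76. Of 15 other asparagine, aspartate and glutamine enzymes 1 was called higher, the alanine aminotransferase GPT2 (1.27, adjusted p = 0.00953), and 1 lower, the mitochondrial aspartate carrier SLC25A13 (-1.45, adjusted p = 0.00472).

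Regulators of the amino acid response gave another count. Of 16 tested, 6 were called higher and 1 lower, with a median of 0.89 against 0.02 over all genes. TRIB3, a pseudokinase induced by ATF4, stood at 22.3 and 8.78 CPM untreated and 115 and 35.4 CPM with 4SU (2.24, adjusted p = 0.000714). CEBPB, which encodes a C/EBP transcription factor, rose by 1.80, JDP2 by 1.66 and the stress-induced SESN2 by 1.66 on the log2 scale. The 10 enzymes thus had 0 calls beside 6 of 16 regulators called higher in the same libraries; the difference between the lists was not tested. Scaled by library totals alone, the counts were again 0 of 10 and 6 of 16 higher.

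The 365 nm step was compared with 4SU alone to show what irradiation of 4SU-fed cells did. Of the 10 genes, 4 were called higher (PHGDH, SHMT2, PYCR1 and ALDH18A1) and 3 lower (MTHFD2, PSPH and PSAT1). These 7 stand against 59.9% of all tested genes called in either direction, 26.1% higher and 33.8% lower, so a call in this comparison was common. The median log2 fold change was 0.67 over the 10 and -0.50 over all genes. Both irradiated libraries lay above both with 4SU alone for 6 of the 10 and below for 3. Over all tested genes the shares were 33.1% and 50.7%, so a lack of overlap was common too. Directions depend on the scaling: scaled by library totals alone, without TMM factors, the median of all genes was -2.40, 0 of the 10 were called higher and 6 lower (7.42% and 72.6% of all genes), and PYCR1, ALDH18A1, SHMT1, ASNS and ALDH1L2 turned from positive to negative values.

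PHGDH, the first enzyme of serine synthesis, stood at 359 and 275 CPM with 4SU alone and at 1643 and 1551 CPM after 365 nm. Every irradiated library was above every unirradiated one. The log2 fold change was 2.33 ± 0.41 (adjusted p = 7.86e-06), a 5.04-fold rise on the TMM scale, and 0.42 (adjusted p = 0.322) on library totals. SHMT2 also rose, from 570 and 349 CPM with 4SU alone to 2016 and 1626 CPM after 365 nm. Its log2 fold change was 1.99 ± 0.42 (adjusted p = 0.000102), and 0.06 on library totals. Both calls held with each library left out in turn, at 2.15 to 2.54 for PHGDH and 1.67 to 2.38 for SHMT2.

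MTHFD2 went the other way. It stood at 315 and 197 CPM with 4SU alone and 60.6 and 48.9 CPM after 365 nm, with no overlap. The log2 fold change was -2.23 ± 0.37 (adjusted p = 2.89e-06), a 4.70-fold fall, and -4.15 on library totals. It was called lower in all 19 alternative settings. PSPH fell from 46.1 and 23.0 CPM to 13.5 and 14.0 CPM (-1.31 ± 0.43, adjusted p = 0.00889) and PSAT1, the aminotransferase between PHGDH and PSPH, from 183 and 100 CPM to 46.0 and 82.5 CPM (-1.12 ± 0.36, adjusted p = 0.00764). DESeq2 did not call PSPH (-1.13, adjusted p = 0.0579) and called PSAT1 lower (-0.94, adjusted p = 0.0451). Their calls rested on few libraries: PSAT1 was at -0.76 and no longer called without the irradiated library A and at -0.62 without 4SU library A. PSPH was not called without the irradiated library A (-1.28) or B (-1.35) or 4SU library A (-0.74).

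The 2 proline enzymes were called higher on the TMM scale, and on library totals PYCR1 was not called and ALDH18A1 was called lower. PYCR1 stood at 8.84 and 5.09 CPM with 4SU alone and 15.7 and 18.9 CPM after 365 nm, from 14 and 27 tags in the irradiated libraries. Its log2 fold change was 1.35 ± 0.51 (adjusted p = 0.0212), against -0.54 on library totals (adjusted p = 0.329), and it was not called without irradiated library B (1.20) or 4SU library B (0.98). ALDH18A1 was at 86.4 and 97.6 CPM with 4SU alone and at 98.8 and 227 CPM after 365 nm. Irradiated library A was close to the unirradiated pair and library B stood well above it. The log2 fold change of 0.84 ± 0.35 (adjusted p = 0.0377) dropped to 0.10 without irradiated library B, was not called without 4SU library A (0.75) or B (0.93), and was -1.02 on library totals (adjusted p = 0.0150).

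The remaining 3 did not pass. SHMT1 stood at 50.9 and 55.2 CPM with 4SU alone and 57.3 and 110 CPM after 365 nm (0.68 ± 0.34, adjusted p = 0.0802). ASNS overlapped, at 354 and 187 CPM against 345 and 311 CPM (0.28 ± 0.37, adjusted p = 0.524). ALDH1L2, the mitochondrial formyl-tetrahydrofolate dehydrogenase, had 8 and 16.5 tags with 4SU alone and 3 and 7 after 365 nm, so that a difference was not detectable at this depth (0.66 ± 0.67, adjusted p = 0.394).

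The other pathway lists moved with many genes of the libraries. Of the 11 others on the serine and glycine list 5 were called higher and 3 lower. PKM (3.36), a glycolytic enzyme kept on that list, GCAT (3.14) and GCSH (3.02) rose and CTH (-1.97) fell on the log2 scale. Of 19 other folate enzymes 9 were higher and 5 lower, with GGH at 3.11 and MTHFD1 at 2.54. Among 10 other proline enzymes 7 were higher and 0 lower, with a median of 2.25 that stayed above 0 on library totals, at 0.35. PEPD, which splits proline dipeptides, was at 3.33, and the proline breakdown enzyme ALDH4A1 at 2.95, P4HA2 at 2.88 and GLUD1 at 2.79. Of 15 asparagine, aspartate and glutamine enzymes 7 were higher and 5 lower, led by NIT2 (3.23), ASS1 (3.09), ASL (3.01) and ASRGL1 (2.75). The 16 regulators gave 2 higher and 7 lower, with MYC at -2.52, EIF2AK3 at -2.33, NFE2L2 at -2.28 and NUPR1 at 2.48. On library totals the medians of the other 4 lists were all negative, from -1.32 for serine and glycine to -2.92 for the regulators.

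**Figure D2:**
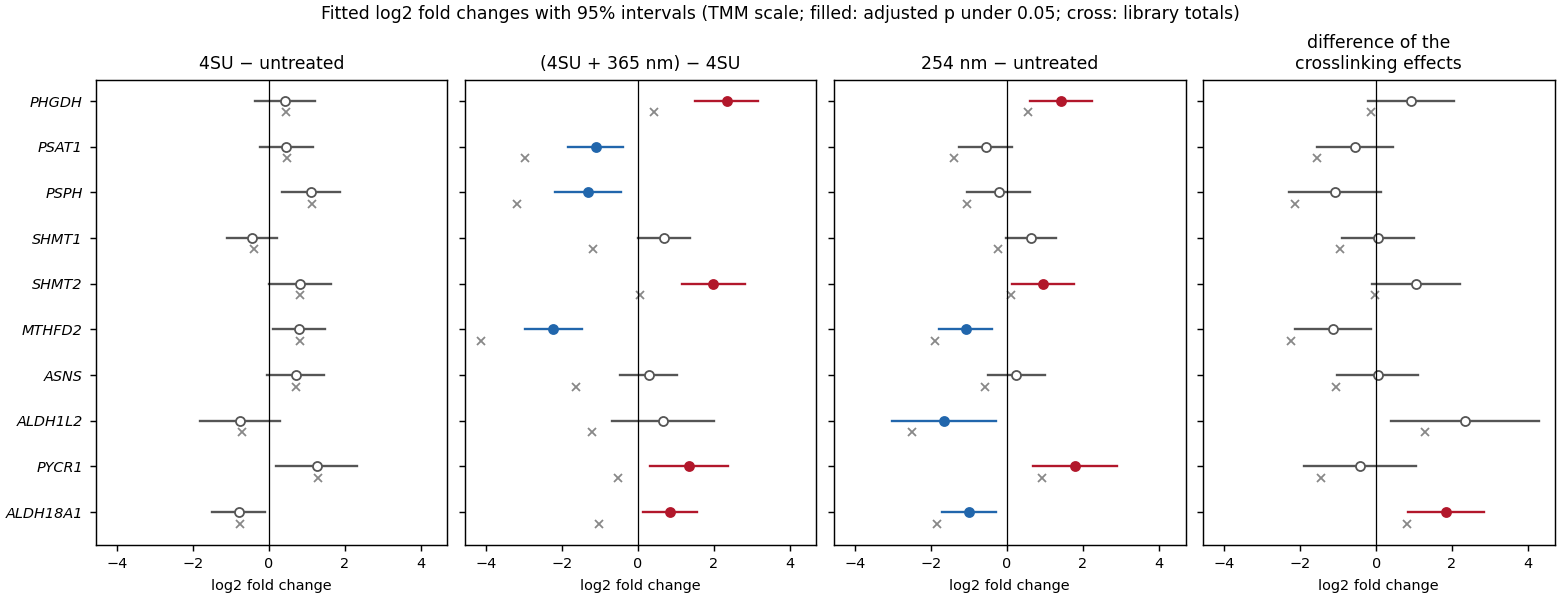
Points are fitted log2 fold changes of the 10 genes with 95% intervals in 4 comparisons (edgeR, TMM scale), filled where the adjusted p was under 0.05 (red higher, blue lower), and crosses are the values on library totals. PHGDH, SHMT2 and PYCR1 lie right of 0 and MTHFD2 left of 0 in both crosslinking panels, and crosses lie left of the points there, for PYCR1 at 365 nm left of 0, but on the points for 4SU alone.

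Irradiation at 254 nm without 4SU was compared with untreated cells. Of the 10 genes, 3 were called higher (PHGDH, PYCR1 and SHMT2) and 3 lower (MTHFD2, ALDH18A1 and ALDH1L2), against 53.2% of all tested genes called, 25.2% higher and 28% lower. The median was 0.01 over the 10 and -0.14 over all genes. Both irradiated libraries lay above both untreated ones for 4 of the 10 and below for 4, against 35.7% and 41.3% of all tested genes. On library totals the median of all genes was -0.998, 0 of the 10 were called higher and 5 lower (10.1% and 47.1% of all genes), and SHMT1 (-0.23) and ASNS (-0.58) turned negative. The untreated libraries serve both here and in the comparison with 4SU alone, so those 2 sets of values are not independent.

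PHGDH stood at 305 and 169 CPM in untreated cells and 668 and 599 CPM after 254 nm, with no overlap. The log2 fold change was 1.42 ± 0.40 (adjusted p = 0.00289), 0.56 on library totals and 1.04 without untreated library B, where it was no longer called (adjusted p = 0.0867). SHMT2 was at 325 and 199 CPM against 572 and 434 CPM, a log2 fold change of 0.94 ± 0.41 (adjusted p = 0.0483) that lost its call in 5 of the 8 fits without 1 library. Those 5 left out a 254 nm library, a 4SU with 365 nm library or untreated library B, with values from 0.62 to 1.12. PYCR1 stood at 4.58 and 0.798 CPM against 10.0 and 9.77 CPM (1.78 ± 0.54, 95% interval 0.69 to 2.88, adjusted p = 0.00552). Without untreated library B, the one with 3 PYCR1 tags, it was 1.09 and not called.

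MTHFD2 fell from 135 and 162 CPM to 90.0 and 49.3 CPM, a log2 fold change of -1.09 ± 0.35 (adjusted p = 0.00805), which was -0.73 and not called without 254 nm library B. ALDH18A1 was at 142 and 180 CPM in untreated cells and 89.5 and 71.3 CPM after 254 nm (-0.997 ± 0.35, adjusted p = 0.0156), not called without 254 nm library B (-0.85) or untreated library B (-0.83). Both genes had both irradiated libraries below both untreated ones, as had 41.3% of all tested genes. ALDH1L2 had 22 and 18 tags in untreated cells and 4.5 and 2.5 after 254 nm. It passed the filter on low counts through the untreated libraries and 4SU library B, so its lower call is a description and supports nothing on the 10. Its log2 fold change was -1.67 ± 0.68 (95% interval -3.04 to -0.30, adjusted p = 0.0354). The call was lost in 6 of the 8 fits without 1 library, those without a 254 nm, untreated or 4SU library, at -2.13 to -1.32.

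The other 4 did not pass at 254 nm. SHMT1 stood at 72.7 CPM in both untreated libraries and at 114 and 111 CPM after 254 nm, above them without overlap (0.63 ± 0.33, adjusted p = 0.102). PSAT1 was at 111 and 95.8 CPM against 84.1 and 55.2 CPM (-0.57 ± 0.35, adjusted p = 0.169). PSPH (-0.23 ± 0.41) and ASNS (0.24 ± 0.37) overlapped between the groups. The log2 interval for PSPH, -1.05 to 0.60, leaves room for either direction.

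Of the 11 other serine and glycine enzymes, 3 were called higher and 2 lower at 254 nm. GCAT, a threonine breakdown enzyme that yields glycine, was at 2.04 and the glycine cleavage carrier GCSH at 1.77, while the sphingolipid enzymes SPTLC1 and SPTLC2, which use serine, were at -1.54 and -0.91. Of 19 folate enzymes 5 were higher and 4 lower, with MTHFS at 1.55, FPGS at 1.46, methionine synthase MTR at -2.14 and its reductase MTRR at -1.83. The 10 proline enzymes gave 3 higher and 4 lower; PYCR3 (1.57) rose, and P4HA1 (-1.43) and GLUD2 (-1.40) fell. Of 15 asparagine, aspartate and glutamine enzymes 4 were higher, ASS1 (1.91) and ASL (1.60) among them, and 4 lower, with GPT at -2.60. Of the 16 regulators 5 were higher and 3 lower, with NUPR1 at 2.43, DDIT3 at 2.06, TRIB3 at 1.74 and EIF2AK3 at -1.60. On library totals the medians of all 5 lists were negative, between -1.54 and -0.43.

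Cells given 4SU and irradiated at 365 nm were also compared with untreated cells, the whole procedure against none. Of the 10 genes 4 were called higher and 1 lower, against 58.9% of all tested genes, 26.3% higher and 32.6% lower. SHMT2 (2.79 ± 0.43, adjusted p = 6.11e-07), PHGDH (2.75 ± 0.42, adjusted p = 5.13e-07) and PYCR1 (2.60 ± 0.55, adjusted p = 0.000104) rose. In fold terms on the TMM scale, SHMT2 was 6.93-fold, PHGDH 6.73-fold and PYCR1 6.07-fold higher than in untreated cells. The PYCR1 value rests on an untreated pair of 23 and 3 tags: it was 4.37 on the log2 scale without untreated library A and 1.91 without untreated library B, called in both. ASNS stood at 205 and 126 CPM untreated and 345 and 311 CPM after the procedure (0.98 ± 0.38, adjusted p = 0.0230), a call lost without either irradiated library (0.91 and 1.04) or untreated library B (0.66). MTHFD2 fell by 1.45 on the log2 scale (adjusted p = 0.000855). ALDH18A1 was at 0.03 and not called (adjusted p = 0.940). On library totals 2 were called higher, PHGDH at 0.86 and SHMT2 at 0.88, and 7 lower, ASNS among them at -0.91, against 7.63% and 70.4% of all genes. This comparison is the sum of the first and the second and shares their libraries.

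Whether the crosslinking effect differed between the procedures was tested as the 365 nm effect over 4SU minus the 254 nm effect over untreated, 2 differences that share no library. Of the 10 genes 1 passed, ALDH18A1, against 17.1% of all tested genes, 9.99% higher and 7.09% lower. ALDH18A1 was 0.84 at 365 nm and -0.997 at 254 nm, a difference of 1.83 ± 0.50 (adjusted p = 0.00803). The value of 0.84 is over 4SU alone, and against untreated cells 4SU with 365 nm was at 0.03. Without 4SU with 365 nm library B the difference was 1.10 (adjusted p = 0.232), and on library totals it was 0.82 (adjusted p = 0.245). Leaving out any of the other 7 libraries kept the call, with values up to 2.33. For the other 9 genes a difference was not shown: MTHFD2 was at -1.14 ± 0.50 (adjusted p = 0.110, 95% interval -2.15 to -0.13), SHMT2 at 1.05 ± 0.57 (-0.10 to 2.20) and PHGDH at 0.92 ± 0.56 (-0.20 to 2.04). The intervals are wide, so equal effects of the 2 procedures on these genes were not shown either.

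The same difference was positive for several other proline enzymes, 7 of 10 called higher and 1 lower, with a median of 2.60 that was 1.55 on library totals. GLUD2 (3.82), GLUD1 (3.67), OAT (3.24), which links ornithine to proline, and P4HA2 (2.88) led the list. Of the 16 regulators 0 were higher and 7 lower, with TRIB3 at -2.64, SESN2 at -2.34, DDIT3 at -2.04 and ATF3 at -1.87. The serine and glycine list gave 3 higher and 0 lower, the folate list 4 and 1, and the asparagine, aspartate and glutamine list 4 and 1. On library totals the counts higher and lower were 5 and 2 for proline, 0 and 12 for the regulators, 0 and 4 for serine and glycine, 2 and 4 for folate and 2 and 5 for asparagine, aspartate and glutamine, against 3.6% and 32.5% of all genes.

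Ratios between 2 of the enzymes within a library avoid the choice of scaling. The tag ratio of PHGDH to MTHFD2 was 2.25 and 1.04 in untreated cells and 1.14 and 1.40 with 4SU. It was 7.43 and 12.1 after 254 nm and 27.1 and 31.7 after 4SU with 365 nm. All 4 irradiated libraries lay above all 4 unirradiated ones, and the siRNA libraries, at 1.19 and 2.13, lay in the unirradiated range. The pairs were not fixed before the values were known. PHGDH was called higher and MTHFD2 lower in both crosslinking comparisons, so their ratio restates those calls and is a description. How many other gene pairs separate in this way was not counted. The ratio of PHGDH to PSAT1, successive enzymes of one pathway, showed the same order, at 1.77 to 2.76 in the 4 unirradiated libraries, 7.95 and 10.8 after 254 nm and 35.7 and 18.8 after 365 nm.

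The ratio of SHMT2 to SHMT1, the mitochondrial and cytosolic forms of one activity, followed another order. It was 4.48 and 2.74 in untreated cells and 5.01 and 3.91 after 254 nm, which overlapped. With 4SU it was 11.2 and 6.33, and after 4SU with 365 nm 35.2 and 14.7. Among these 4 groups, both given 4SU lay above both not given it. The siRNA libraries, which had no 4SU in their labels, were at 4.97 with GFP siRNA and 7.72 with HuR siRNA, the latter above 4SU library B. SHMT2 to PHGDH, the 2 most abundant, stayed between 0.724 and 1.59 in all 10 libraries.

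**Figure D3:**
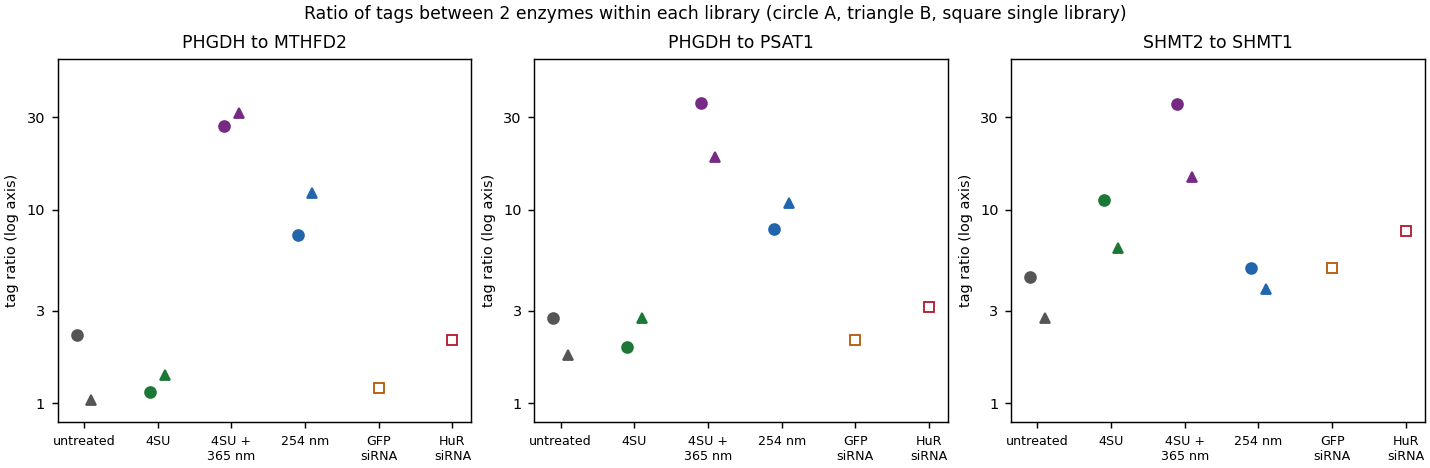
Each panel gives the ratio of deposited tags of 2 enzymes in each of the 10 libraries on a log axis (circle A, triangle B, square single library). PHGDH to MTHFD2 and PHGDH to PSAT1 are highest after 4SU with 365 nm and next after 254 nm, while SHMT2 to SHMT1 is high in both 4SU groups and near the untreated values after 254 nm.

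The transcripts differ in base composition and length. GC content moved with the values of the 10 in both crosslinking comparisons, and length did at 254 nm and with 4SU alone. The GC content of the transcript was 61.2% for PYCR1, 57.5% for PHGDH and 56.4% for SHMT2, and 42.3% for PSAT1, 42.1% for ALDH1L2 and 41.4% for MTHFD2; the MTHFD2 value comes from a GENCODE transcript of 4456 nt where the deposited length is 2208 nt. The median over the 11199 tested genes with a value was 49.2%. Across the 10 genes Pearson's r of GC content with the log2 fold change was 0.91 at 254 nm and 0.74 at 365 nm, and without MTHFD2 0.89 and 0.67 over 9. Over all tested genes it was 0.55 and 0.27. For 4SU without crosslinking against untreated it was 0.34 over the 10 and 0.41 over all tested genes. ALDH1L2, with 4.5 and 2.5 tags after 254 nm, and PYCR1, with 23 and 3 tags in untreated cells, are included in these values. The correlation without ALDH1L2 was not computed. These are descriptions across genes, which are not independent replicates and share the same libraries.

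Length separated the 10 less, since 8 of them had deposited transcripts of 2021 to 2540 nt; ALDH18A1 had 3470 nt and ALDH1L2 7555 nt, against a median of 2753 nt over tested genes. With log2 length, r over the 10 was -0.64 at 254 nm and 0.10 at 365 nm, and over all tested genes -0.62 and -0.43. For 4SU without crosslinking against untreated it was -0.75 over the 10 and -0.17 over all tested genes. For the difference of the crosslinking effects it was 0.75 and 0.10. ALDH1L2, the longest and on few tags, is included in the values over the 10. With length and GC trends removed from each library, MTHFD2 alone of the 10 remained called at 254 nm (-0.86). In that fit 11.8% of the genes were called higher and 9.62% lower, and PHGDH was at 0.50, SHMT2 at 0.37 and PYCR1 at 0.70. MTHFD2 entered the fit with the GC content of the longer GENCODE transcript, so its values under this setting carry that limit. At 365 nm with the same trends removed, 8 of the 10 were called, 5 higher and 3 lower, against 26.7% higher and 25.2% lower of the 11199 genes in that fit, and PYCR1 was at 0.87 and not called (adjusted p = 0.0766). Under that setting the difference between the procedures was called for 4 of the 10, against 16.5% higher and 10.9% lower over all genes, with PHGDH at 1.44 and SHMT2 at 1.55.

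**Figure D4:**
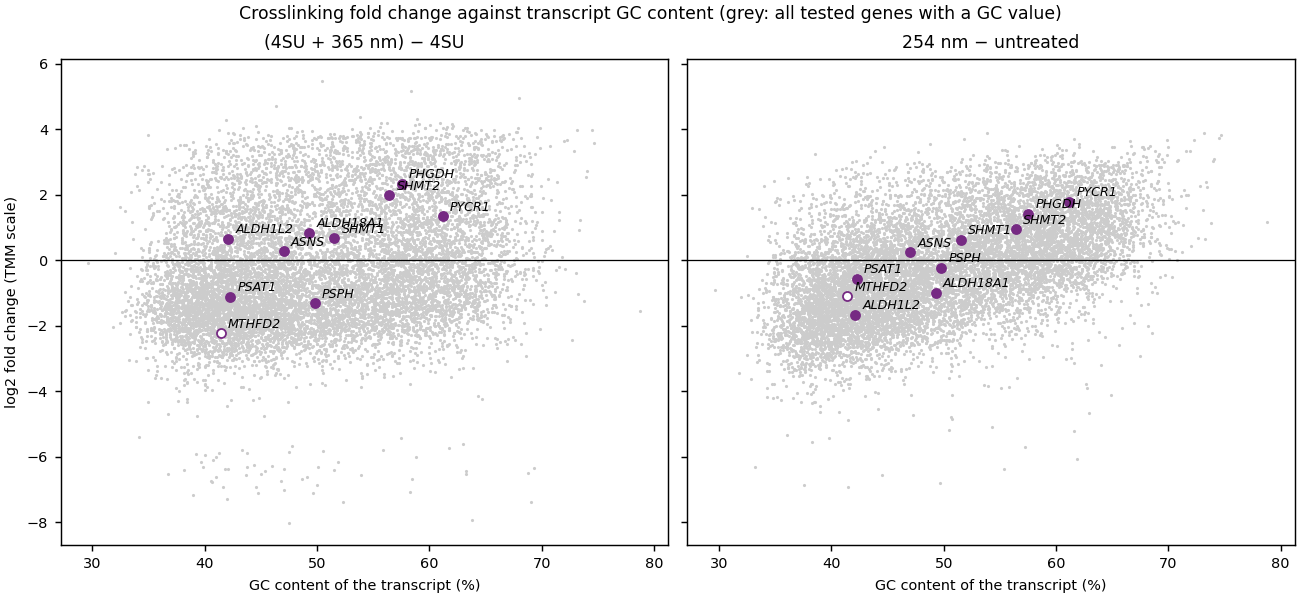
Log2 fold change (TMM scale) of the 10 genes, labelled, and of all tested genes with a GC value, grey, against transcript GC content in percent for both crosslinking comparisons; the open point marks MTHFD2, whose GC content comes from a longer transcript. At 254 nm the fold changes of the 10 tend to be higher at higher GC content, and at 365 nm they are more scattered. The lowest at 254 nm, ALDH1L2 at -1.67, and the highest, PYCR1 at 1.78, rest on few tags.

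Genes with the most similar profile were sought for PHGDH, SHMT2 and ASNS among 6865 tested genes of above-median level. Pearson's r of log2 CPM over the 8 libraries of the 4 groups was 0.997 between PHGDH and ATP6V0C, a subunit of the proton pump of lysosomes, and 0.996 between PHGDH and YIPF3. For SHMT2 it was 0.991 with RACK1, a protein of the small ribosomal subunit, and 0.986 with MAZ. For ASNS it was 0.958 with R3HDM4. The other 4 of the 9 closest profiles belonged to transcripts without a gene name in the tables used. The 8 libraries are pairs of 4 conditions, so these values rest on 4 pairs and are descriptions only.

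The HuR and GFP siRNA libraries had 1 library each, so their differences have no replicate check and no test was made. ELAVL1, the mRNA of HuR itself, had 1905 tags with GFP siRNA and 638 with HuR siRNA, a log2 ratio of -1.54 with a 95% exact counting interval of -1.67 to -1.41. Intervals here cover counting error only. Of the 10 enzymes 1 was past 2-fold, PYCR1 (higher), against 10.8% of the 17798 genes with enough tags past 2-fold in either direction, 4.4% higher and 6.37% lower. The median log2 ratio was 0.15 over the 10 and -0.00235 over all genes.

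PYCR1 had 41 tags with GFP siRNA and 91 with HuR siRNA, a log2 ratio of 1.15 (0.64 to 1.76). PHGDH had 2826 and 4667 tags (0.76, 0.70 to 0.83) and SHMT2 3199 and 5251 (0.75, 0.69 to 0.82). The 2 most abundant enzymes therefore had nearly the same ratio. ALDH18A1 had the lowest, with 2182 and 1161 tags and a log2 ratio of -0.87 (-0.97 to -0.77). ASNS was at 0.43 (0.34 to 0.52), PSAT1 at 0.19 and ALDH1L2 at -0.35 (-0.62 to -0.08). The intervals of SHMT1, PSPH and MTHFD2 included 0. In the pair, PYCR1, PHGDH and SHMT2, the 3 with the highest GC content, had the highest ratios.

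ALDH1L2 stood apart in the siRNA libraries as a whole. As CPM of the library total it was 31.1 with GFP siRNA and 22.8 with HuR siRNA, against 7.31 ± 0.294 (SD, n = 2) in untreated cells, 4.37 ± 1.23 with 4SU, 1.27 ± 0.727 after 254 nm and 1.84 ± 0.842 after 4SU with 365 nm. PHGDH, at 325 and 518 CPM of the total against 380 ± 162 in untreated cells, did not stand apart in this way. Transfected cells differ from the others in their treatment and in sequencing depth, and no label says that untransfected cells were prepared beside them, so the difference was not tested. The summed HEK293 markers also stood higher in these libraries, at 2911 and 2059 CPM against at most 951 CPM in the other 8, most of it NEFL; their part in the result was not tested.

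**Figure D5:**
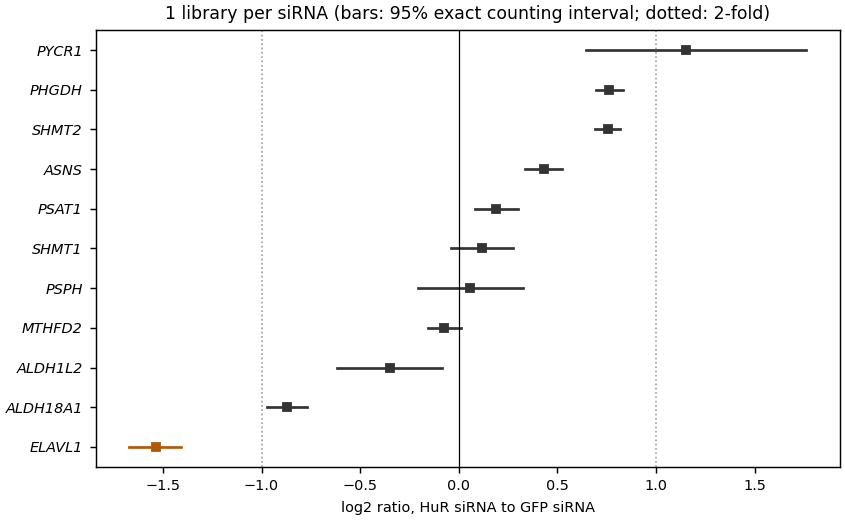
Log2 ratio of HuR siRNA to GFP siRNA for the 10 enzymes and, in orange, ELAVL1, from 1 library each, with 95% exact counting intervals and dotted lines at 2-fold. PYCR1 alone lies past 2-fold at 1.15, PHGDH and SHMT2 lie at 0.76 and 0.75, and ALDH18A1 lies lowest of the enzymes at -0.87.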

How the data were processed

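Polyadenylated RNA of HEK293 cells was measured in 10 libraries. The deposited tables give, per the file headers, an estimated count of tags per transcript, a transcript length and an expression signal; counts are fractional where a tag was shared between transcripts, and the authors' expression signal equals count per length and library total, which was checked and not used further. No source used here names the aligner, annotation or genome build. Transcript accessions were matched to RefSeq (15884 of 25005) or GENCODE v29 alone (136), and 8985 stayed unnamed. Counts were summed by gene, rounded, and tested with edgeR 4.0.16 (R 4.3.3; filterByExpr, TMM factors, quasi-likelihood test, two-sided, 8 libraries in 1 fit, Benjamini-Hochberg over 13731 genes, called at an adjusted p under 0.05). The common biological coefficient of variation was 0.244, with 4 residual degrees of freedom. The prior degrees of freedom, which weigh the spread shared over genes, had a median of 40.0. SE was taken from the fold change and F statistic. The siRNA pair was scaled by its own TMM factors, with a prior count of 2 and exact conditional binomial intervals, in 17798 genes with 10 or more tags in the pair. The fit was tested on simulated data. The letters A and B were treated as names: differences between A and B correlated at -0.25 to 0.42 between groups over 6865 genes.

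All 10 enzymes are named; of each pathway list, at most 4 called genes with the largest fold changes (some of these are not reported here), and the 3 closest profiles of ASNS, PHGDH and SHMT2. The enzymes and lists were chosen with earlier results of these data known. Alternatives were RLE, upper-quartile and no scaling factors, DESeq2 1.42.0, filters, a replicate block, unsummed transcripts, a stricter threshold, a length trend, leaving out each library, and, chosen after seeing the data, length and GC trends together (GC content from GENCODE v29 for 81.6% of tested genes and all 10 enzymes).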

Additional observations from a re-analysis of the deposited data

Results flagged for a closer look

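ALDH18A1 was flagged because its response to 365 nm in 4SU-fed cells and its response to 254 nm in untreated cells differed by a test of the difference itself. The difference was 1.83 on the log2 scale (adjusted p = 0.00803, edgeR's quasi-likelihood test), from 0.84 at 365 nm and -0.997 at 254 nm. It was 1.10 without 4SU with 365 nm library B and 0.82 on library totals, and called in neither. In that library ALDH18A1 stood at 227 CPM, against 98.8 CPM in its partner. The 365 nm value is over 4SU alone, which was itself at -0.80 against untreated cells (adjusted p = 0.157). Against untreated cells, 4SU with 365 nm was at 0.03 (adjusted p = 0.940). Over all tested genes 9.99% were called higher and 7.09% lower in this test, so 1 call among 10 enzymes was near that share. Of 10 other proline enzymes 7 were called higher on the TMM scale, with a median of 2.60, so the result was not particular to ALDH18A1.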

How the results depend on the processing

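The counts of enzymes called were most sensitive in the comparisons with few or borderline calls. For 4SU against untreated the count went from 0 to 2 with a replicate block (PSPH and PYCR1) and to 2 with length and GC trends removed (PSPH and MTHFD2), and ranged from 0 to 2 with a library left out. For 254 nm it was 6, and 3 at an adjusted p under 0.01, 1 with length and GC trends removed, and 1 to 5 with a library left out. For 365 nm against 4SU it was 7 and ranged from 4 to 8 with a library left out; for the whole procedure it was 5, 9 on library totals, and 4 to 5 with a library left out. For the difference of the crosslinking effects it was 1, and 3 on library totals, 2 with the length trend removed, 4 with length and GC trends removed, and 0 to 1 with a library left out. The replicate block changed no other call. The shares of all tested genes called moved too. For 4SU against untreated, 3.85% were higher and 3.69% lower, then 6.28% and 6.05% with the block. With length and GC trends removed they were 7.43% and 8.32%. At 254 nm, 25.2% and 28% became 20% and 20.8% at the stricter threshold and 11.8% and 9.62% with both trends removed. On library totals the whole procedure gave 7.63% and 70.4% and the difference gave 3.6% and 32.5%. The difference gave 12.5% and 7.08% with the length trend removed and 16.5% and 10.9% with both removed. The causes were not tested.

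Values that changed sign were mostly small ones or came from library totals. On library totals, at 365 nm SHMT1 was -1.19, ASNS -1.63, ALDH1L2 -1.23, PYCR1 -0.54 and ALDH18A1 -1.02; at 254 nm SHMT1 was -0.23 and ASNS -0.58; for the whole procedure SHMT1 was -1.60, ASNS -0.91 and ALDH18A1 -1.77; and for the difference PHGDH was -0.14, SHMT1 -0.96, SHMT2 -0.033 and ASNS -1.05. For the whole procedure, PSPH was 0.029 and ALDH1L2 0.13 with RLE factors, ALDH1L2 0.025 with DESeq2, 1.11 with the length trend and 1.62 with length and GC trends removed, and ALDH18A1 -0.042 with upper-quartile factors, -0.076 with no filter and -0.011 with the replicate block. With length and GC trends removed ALDH1L2 was 0.23 at 254 nm and PYCR1 0.17 for the difference.

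With a library left out, signs changed for ASNS at 365 nm (-0.11 to 0.81), 254 nm (-0.23 to 0.63) and in the difference (-0.35 to 0.58), SHMT1 (-0.36 to 0.60) and ALDH1L2 (-0.45 to 0.093) and ALDH18A1 (-0.72 to 0.50) in the whole procedure, SHMT1 (-0.52 to 0.45) and PYCR1 (-2.19 to 0.27) in the difference, PSAT1 with 4SU (-0.059 to 0.82) and PSPH at 254 nm (-0.51 to 0.039). None of these was called. ALDH1L2 was not tested at 365 nm when only the 2 groups compared were fitted. The low tag counts of ALDH1L2 and PYCR1 limit what can be shown for them.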
